A study of Rattus norvegicus with 19 samples.

Results

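The 10 genes described here are circadian clock genes: Per1, Per2, Per3, Cry1, Cry2, Arntl (current symbol Bmal1), Clock, Npas2, Nr1d1 and Dbp. They were chosen by gene name. All array probes carrying 1 of these names and not marked as controls were taken, which gave 15 of the 45598 probes on the array. Of these, 13 probes were tested and stood for all 10 genes among 24217 genes tested, and the other 2, both for Per3, were not tested because they were well above background on only 1 and 0 of 19 arrays. Renal cortex RNA was measured in 19 rats (male, strain Crl:CD (SD)), each on its own 1-colour Agilent array. The 7 DKD+enarodustat rats received 65 mg/kg of streptozotocin intravenously 7 days before grouping and then feed containing 0.01% (w/w) enarodustat, which blocks HIF prolyl hydroxylases, the oxygen-sensing enzymes that target hypoxia-inducible factors for breakdown. The 7 DKD rats received the same streptozotocin and normal feed, and the 5 Sham rats received vehicle and normal feed. Streptozotocin destroys insulin-producing beta cells, so both DKD groups model diabetes with insulin loss, and the diabetic rats were chosen to match on blood glucose and body weight. Kidneys were taken 14 days after grouping. The age of the rats and the time of day at which kidneys were taken are not given in the sources used here.

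In the mammalian clock, the proteins ARNTL and CLOCK, or NPAS2 in place of CLOCK, pair up and switch on genes that carry E-box sequences, among them the Per and Cry genes. PER and CRY proteins then repress that pair, which closes a loop of about a day. Nr1d1 encodes REV-ERB alpha, a nuclear receptor that represses Arntl, and Dbp encodes a transcription factor that is itself switched on through E-boxes and acts on D-box sequences. In the kidney this clock sets daily rhythms of transport and metabolism, and because these transcripts cycle over the day, levels in single samples depend on the time of sampling.

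Promoter windows were searched for the letters of sequence elements on which clock proteins can act. Windows of 300 bases, from 250 before to 50 after the start site, were taken from RefSeq on the GRCr8 build for 9 of the 10 genes (11 windows). In all, 5 short motifs were searched on both strands: CACGTG and CACGTT (E-box and E-prime box), TTATGTAA and TTATGCAA (D-boxes) and TAGGTCA (core of the ROR element, bound by REV-ERB and ROR receptors). No matches overlapped each other. The windows that held a match are printed here because they hold the letters of these motifs. Capitals mark the matches, and a match on the opposite strand appears as its reverse complement. The Per2 window (chr9:99496944-99497243, minus strand) held CACGTT starting 62 bases before the start site and TTATGTAA starting 192 bases before it. The Cry2 window (chr3:98860388-98860687, minus strand) held CACGTT on the opposite strand, and the Arntl window (chr1:176766078-176766377, plus strand) held TAGGTCA starting 16 bases before the start site. Nr1d1 had windows at 2 start sites (chr10:84231763-84232062 and chr10:84229405-84229704, both minus strand), the first with CACGTT on the opposite strand and the second with CACGTG.
Per2: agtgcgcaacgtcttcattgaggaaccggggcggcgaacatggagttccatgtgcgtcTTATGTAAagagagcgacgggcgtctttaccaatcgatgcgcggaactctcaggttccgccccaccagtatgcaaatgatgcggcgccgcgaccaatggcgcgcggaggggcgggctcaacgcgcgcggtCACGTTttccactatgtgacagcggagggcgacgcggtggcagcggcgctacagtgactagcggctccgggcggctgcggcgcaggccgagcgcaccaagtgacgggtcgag
Cry2: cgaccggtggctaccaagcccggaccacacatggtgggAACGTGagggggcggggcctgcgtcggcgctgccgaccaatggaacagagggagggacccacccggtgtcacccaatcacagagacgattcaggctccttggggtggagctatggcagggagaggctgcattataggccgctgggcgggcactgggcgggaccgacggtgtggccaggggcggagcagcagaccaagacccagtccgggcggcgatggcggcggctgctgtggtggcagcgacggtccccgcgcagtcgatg
Arntl: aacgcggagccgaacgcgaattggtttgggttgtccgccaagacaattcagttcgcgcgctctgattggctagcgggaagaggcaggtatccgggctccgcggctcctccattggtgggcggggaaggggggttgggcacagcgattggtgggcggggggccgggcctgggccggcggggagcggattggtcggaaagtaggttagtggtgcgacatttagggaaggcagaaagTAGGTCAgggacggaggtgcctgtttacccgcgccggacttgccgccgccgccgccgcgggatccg
Nr1d1 first window: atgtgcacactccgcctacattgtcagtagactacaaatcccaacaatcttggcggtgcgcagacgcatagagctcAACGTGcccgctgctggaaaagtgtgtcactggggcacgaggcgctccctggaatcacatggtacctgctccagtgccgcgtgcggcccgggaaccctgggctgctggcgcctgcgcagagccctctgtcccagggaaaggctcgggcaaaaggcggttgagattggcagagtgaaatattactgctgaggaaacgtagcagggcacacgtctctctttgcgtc
Nr1d1 second window: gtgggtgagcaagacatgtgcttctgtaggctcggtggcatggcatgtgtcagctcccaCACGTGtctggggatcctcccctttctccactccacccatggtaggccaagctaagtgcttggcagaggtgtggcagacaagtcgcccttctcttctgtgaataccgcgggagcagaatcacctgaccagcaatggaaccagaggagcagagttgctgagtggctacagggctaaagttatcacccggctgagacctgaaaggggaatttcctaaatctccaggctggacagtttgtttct
Among all 33469 windows of the same length, 6.42% held CACGTG, 4.83% CACGTT, 0.893% TTATGTAA, 0.863% TTATGCAA and 2.63% TAGGTCA. The windows of Per1, Per3, Clock, Npas2 and Dbp held none of these motifs, and no window was available for Cry1. Sequence outside the windows was not searched, so a window without a match does not show that the gene lacks such an element. A match describes letters only.

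Values are normalised log2 levels: log2 of the processed Cy3 intensity minus the 75th percentile of that array, so that 0 is the level of the probe at that percentile. Levels compare rats for 1 probe and not 1 gene with another. Differences are log2 differences from limma (lmFit and eBayes, 3 groups in 1 fit) with standard errors, and p-values were adjusted by Benjamini-Hochberg over all 24217 genes, with a threshold of 0.05. The comparisons share arrays: DKD+enarodustat against DKD and DKD against Sham share the DKD arrays, and the comparisons against Sham share the Sham arrays. In bulk cortex, fewer cells of a type and less RNA per cell cannot be told apart.

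**Figure D1:**
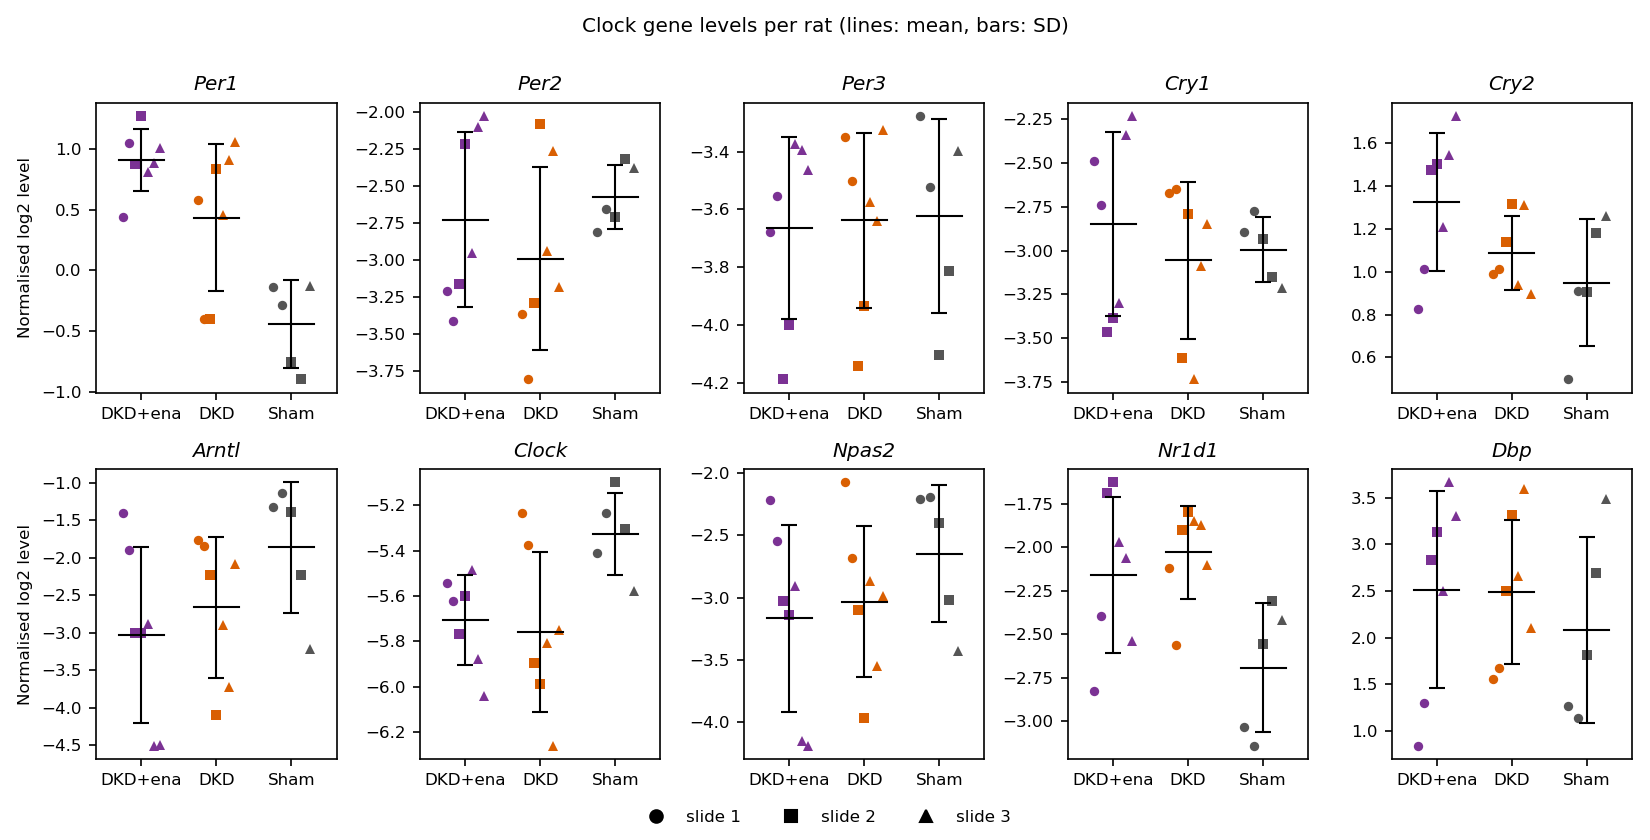
Normalised log2 level of the 10 clock genes in every rat, with DKD+enarodustat, DKD and Sham from left to right in each panel; points are rats, their shape is the slide, and the line and bar are the group mean and SD. Per1 sits between 0.44 and 1.27 in DKD+enarodustat rats, all above the Sham rats.

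DKD differed from Sham for 2 of the 10 genes, both higher in DKD, against a background of 17.1% of all genes called in this comparison (8.02% called higher). Per1, a PER repressor that is also induced directly by glucocorticoid and light signals, was higher by 0.87 ± 0.25, a 1.83-fold difference (adjusted p = 0.0207). Nr1d1 was higher by 0.66 ± 0.21, a 1.58-fold difference (adjusted p = 0.0364). The other 8 genes did not pass the threshold in this fit, and Clock came nearest at -0.43 ± 0.15 (adjusted p = 0.0573). With replicate number as a block, 2 genes were again called, but they were Nr1d1, higher in DKD, and Per2, lower in DKD, and Per1 did not pass (adjusted p = 0.0625).

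In DKD+enarodustat against Sham, 1 of 10 genes passed, against a background of 26.1% of all genes in this comparison. Per1 was higher by 1.35 ± 0.25, a 2.54-fold difference (adjusted p = 0.000644). Its groups did not overlap, which was the case for 5.51% of all genes in the higher direction. Every DKD+enarodustat array lay in row 2 of its slide and every Sham array in row 1, so row and group cannot be told apart here.

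DKD+enarodustat against DKD gave 0 of 10 calls with limma at adjusted p under 0.05, against a background of 2.00%, and 0 of 10 genes at an unadjusted p under 0.05, against 13.7% of all genes. The smallest was Per1 at 0.47 ± 0.23 (unadjusted p = 0.0512, adjusted p = 0.369).

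**Figure D2:**
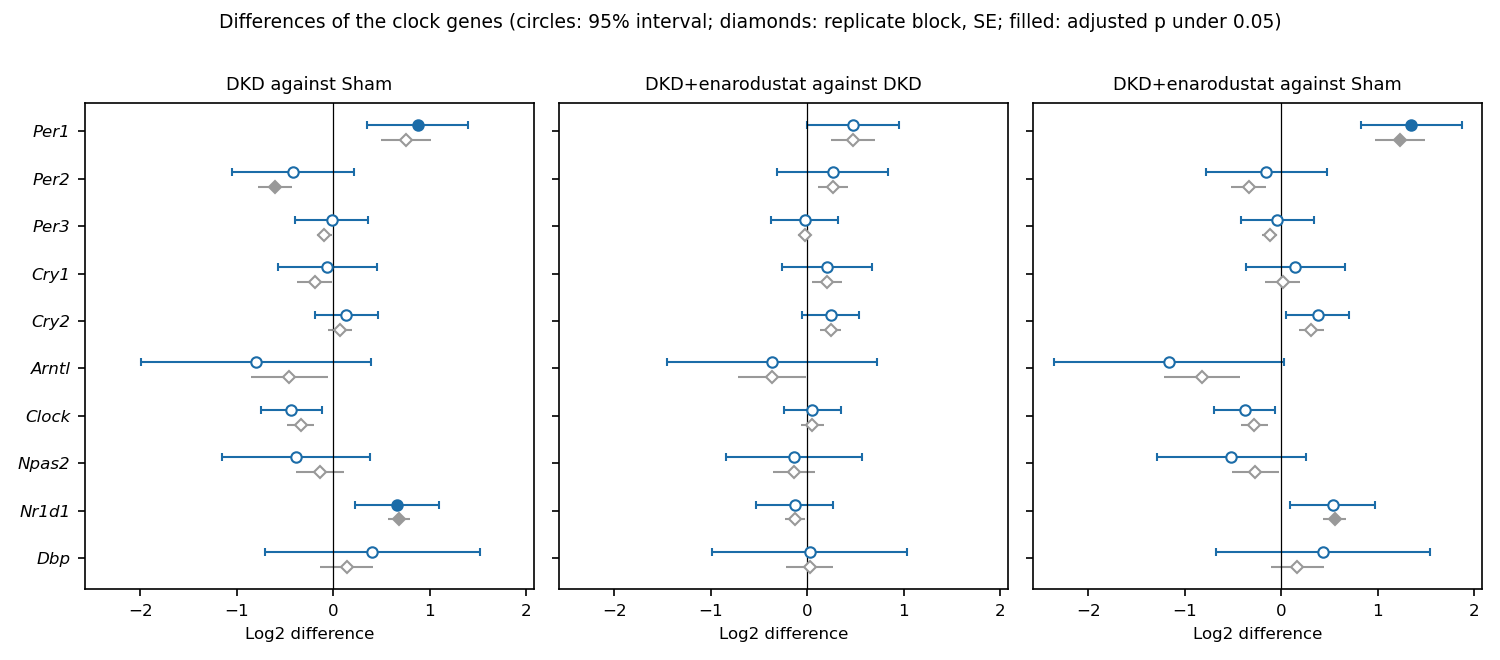
Log2 difference of each clock gene in the 3 comparisons; blue circles with bars are the estimate and its 95% confidence interval, grey diamonds with bars are the estimate and SE with replicate number as a block, and filled symbols have adjusted p under 0.05. Per1 in DKD+enarodustat against Sham stands farthest from 0 among the filled circles at 1.35.

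Among the repressor genes, Per1 had a lowest, median and highest level of 0.44, 0.88 and 1.27 in DKD+enarodustat rats and of -0.40, 0.58 and 1.05 in DKD rats, against -0.14, -0.29, -0.76, -0.90 and -0.13 in the 5 Sham rats. DKD replicates 2 and 3 lay within the Sham range, and the other 5 DKD rats lay above every Sham rat. A second Per1 probe was dimmer and is shown because its rn4 coordinates (chr10:55867840-55868424) span 585 bases for a 60-base probe, so that it crosses a junction in the transcript.
Per1 second probe: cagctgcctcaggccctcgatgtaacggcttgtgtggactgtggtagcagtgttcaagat
By this probe Per1 was higher by 0.91 ± 0.24 in DKD+enarodustat than in Sham (adjusted p = 0.00947), and the DKD minus Sham difference was 0.53 ± 0.24 (adjusted p = 0.156). Its values followed the first probe between rats of a group (r = 0.93 across 19 arrays, a description of probes that share the same RNA). Averaged over both probes, DKD minus Sham was 0.70 ± 0.24 and did not pass (adjusted p = 0.0544).

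The call of Per1 in DKD against Sham changed when single Sham arrays were left out and with the fit. Leaving out Sham replicate 3 or 4 gave 0.80 and 0.76, neither past the threshold. With replicate number as a block, which pairs rats that lay on the same slide, the difference was 0.76 ± 0.26 (adjusted p = 0.0625). For DKD+enarodustat against Sham the block gave 1.23 ± 0.26 (adjusted p = 0.00448), and leaving out any 1 rat of either group gave 1.23 to 1.42, all past the threshold. Within slides 1, 2 and 3, Per1 differed by 0.30, 1.05 and 0.94 for DKD against Sham and by 0.95, 1.90 and 1.03 for DKD+enarodustat against Sham. All 6 values were positive, and in these fits of 6 or 7 arrays none passed the threshold (adjusted p of 0.102 to 0.727). Slide 3 held 1 Sham array, which is assumed there to vary like the other groups.

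Per2, a PER repressor whose window held a CACGTT and a D-box match, had a lowest, median and highest level of -3.41, -2.95 and -2.02 in DKD+enarodustat rats and of -3.81, -3.18 and -2.08 in DKD rats, against -2.81, -2.66, -2.70, -2.31 and -2.37 in Sham rats. The diabetic rats spread on both sides of the Sham rats. DKD minus Sham was -0.42 ± 0.30 (adjusted p = 0.41), and with replicate number as a block it was -0.60 ± 0.18 (adjusted p = 0.0362), the only clock gene besides Nr1d1 called in that fit. Per3, the third PER gene, differed by -0.02 in DKD against Sham, -0.03 in DKD+enarodustat against DKD and -0.04 in DKD+enarodustat against Sham, with 95% intervals within -0.42 to 0.36. Its group means were -3.66, -3.64 and -3.62 in DKD+enarodustat, DKD and Sham.

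The cryptochromes encode the CRY proteins that bind and silence the activators. Cry2 averaged 1.33 ± 0.32 in DKD+enarodustat, 1.09 ± 0.17 in DKD and 0.95 ± 0.30 in Sham (SD, n = 7, 7 and 5), and DKD+enarodustat minus Sham was 0.38 ± 0.15 (adjusted p = 0.081). With slide as a block that difference was 0.34 ± 0.12 and passed (adjusted p = 0.0425). Cry1 averaged -2.85 ± 0.52 in DKD+enarodustat, -3.06 ± 0.45 in DKD and -2.99 ± 0.18 in Sham, and none of its 3 differences passed (adjusted p of 0.741 to 0.923).

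Among the activator genes, Arntl had a lowest, median and highest level of -4.50, -3.0 and -1.40 in DKD+enarodustat rats and of -4.09, -2.23 and -1.76 in DKD rats, against -1.32, -1.14, -1.39, -2.23 and -3.22 in Sham rats. The groups overlapped. DKD+enarodustat minus Sham was -1.17 ± 0.57 (adjusted p = 0.146) and DKD minus Sham was -0.80 ± 0.57 (adjusted p = 0.404), with a 95% interval of -1.99 to 0.40. In the authors' deposited value table, tested with the same fit, Arntl passed in DKD+enarodustat against Sham at -0.65 (adjusted p = 0.0221). Npas2, the CLOCK-like partner, had a lowest, median and highest level of -4.19, -3.03 and -2.21 in DKD+enarodustat rats and of -3.97, -2.99 and -2.07 in DKD rats, against -2.21, -2.19, -2.40, -3.02 and -3.43 in Sham rats, and its 3 differences had adjusted p of 0.341 to 0.948. Clock averaged -5.70 ± 0.20 in DKD+enarodustat, -5.76 ± 0.35 in DKD and -5.32 ± 0.18 in Sham. Its difference from Sham was -0.38 ± 0.15 for DKD+enarodustat (adjusted p = 0.0745) and -0.43 ± 0.15 for DKD, and with slide as a block the DKD value was -0.38 ± 0.13 (adjusted p = 0.0499). A second Clock probe gave -0.45 ± 0.18 for DKD against Sham (adjusted p = 0.0879).

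Nr1d1 had a lowest, median and highest level of -2.83, -2.06 and -1.63 in DKD+enarodustat rats and of -2.56, -1.90 and -1.80 in DKD rats, against -3.03, -3.14, -2.55, -2.31 and -2.42 in Sham rats. DKD replicate 2 was the lowest DKD rat and lay just below the Sham rat at -2.55, while the other 6 DKD rats lay above every Sham rat. Its probe is printed because its rn4 coordinates (chr10:87543165-87543519) span 355 bases, so that it crosses a junction in the transcript.
Nr1d1 probe: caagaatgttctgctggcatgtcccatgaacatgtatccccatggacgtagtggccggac
The DKD call held with slide as a block (0.64 ± 0.13, adjusted p = 0.00201) and with replicate number as a block (0.68 ± 0.12, adjusted p = 0.00242). The call was lost with quantile normalization (adjusted p = 0.0501), with arrays centred on the median (adjusted p = 0.0668) and with no filter on dim probes (adjusted p = 0.0591). Leaving out 1 rat at a time gave 0.55 to 0.76, and the 7 of 12 such fits without Sham replicate 1, 2 or 3 or DKD replicate 3, 4, 5 or 6 did not pass. Within slides 1, 2 and 3 the difference was 0.74, 0.58 and 0.47, none of them past the threshold. DKD+enarodustat minus Sham was 0.53 ± 0.21 (adjusted p = 0.0693), and 0.55 ± 0.12 with replicate number as a block (adjusted p = 0.00469).

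**Figure D3:**
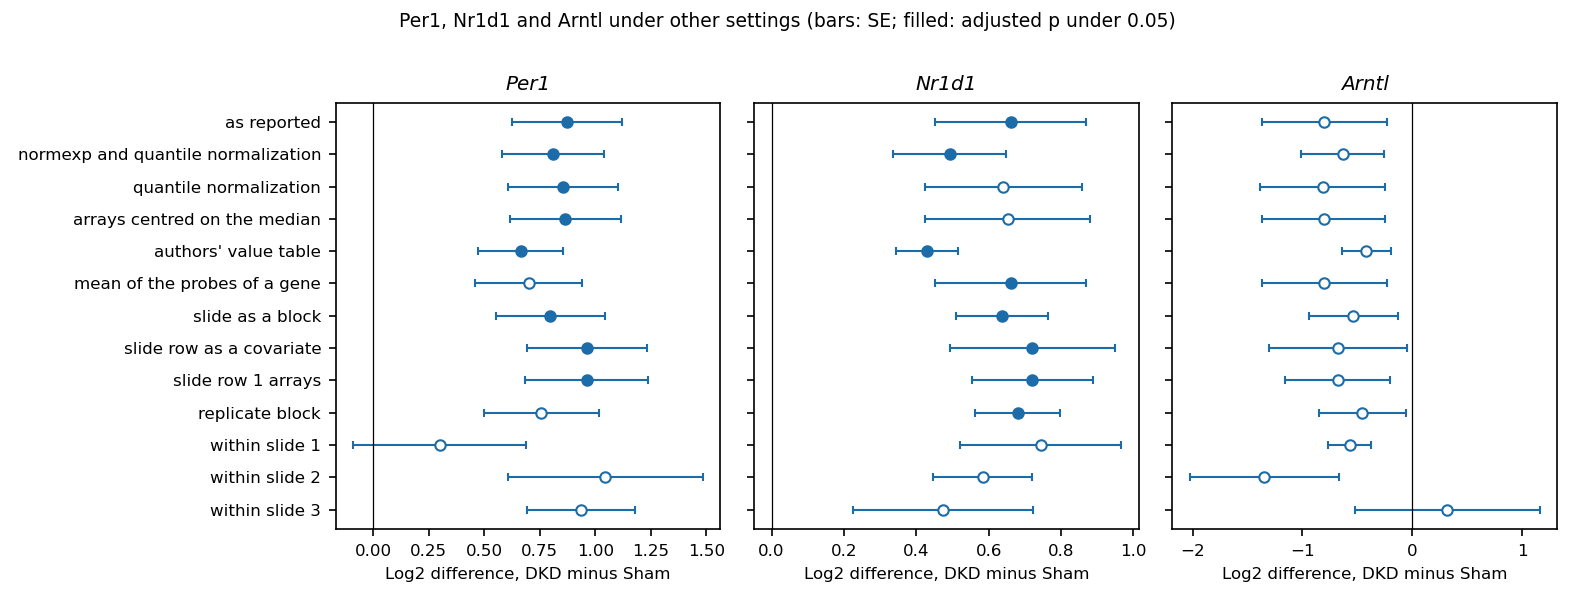
Log2 difference of Per1, Nr1d1 and Arntl in DKD minus Sham under the reported fit and 12 other settings, with bars for the standard error and filled points for adjusted p under 0.05. Per1 and Nr1d1 stay above 0 in every setting shown, and Arntl is at 0.32 within slide 3.

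Dbp, the output factor, had a lowest, median and highest level of 0.84, 2.83 and 3.66 in DKD+enarodustat rats and of 1.56, 2.50 and 3.59 in DKD rats, against 1.27, 1.14, 1.81, 2.69 and 3.49 in Sham rats. Groups overlapped, and DKD minus Sham was 0.41 ± 0.53 (adjusted p = 0.701). A second Dbp probe tracked the first (r = 0.99 across 19 arrays).

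Rats of 1 group differed far more in some clock genes than in most genes. The within-group SD was 1.02 for Arntl (percentile 95.4 among the genes tested), 0.94 for Dbp (94.0) and 0.65 for Npas2 (84.0), against a median of 0.26 over all genes. Slide accounted for 84.5% of the within-group variance of Per3, 71.9% of Dbp, 69.5% of Nr1d1 and 55.9% of Arntl, against 25.8% for the median gene, and for 15.5% of Per1. Of the within-group variance of Per2, replicate number accounted for 78.6% and slide for 40.6%, against 49.3% by number for the median gene. Replicates 1 and 2 of each group lay on slide 1, 3 and 4 on slide 2 and 5 to 7 on slide 3, so rats of 1 number always shared a slide.

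Levels of Arntl ran from -1.90 to -1.14 on slide 1 and from -4.50 to -2.08 on slide 3. Dbp ran from 0.84 to 1.68 on slide 1 and from 2.10 to 3.66 on slide 3. Slide 1 was thus high in Arntl and low in Dbp, and slide 3 the reverse. How many of all genes differ this much between these slides was not counted, so the ranges only describe Arntl and Dbp.

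With group means removed, 17 of 45 pairs of clock genes were correlated between rats (Pearson r, permutation test with 100000 permutations within groups, two-sided, adjusted over 45 pairs), 7 positively and 10 negatively. An absolute r of 0.52, the smallest among these 17, was reached by 40.0% of the 45 pairs, against 12% of all pairs of genes tested. With slide means removed as well the smallest was 0.53, reached by 31.1% of the 45 pairs and 6.20% of all pairs. The permutations that gave the 17 pairs did not hold slide fixed. Arntl and Npas2 varied together (r = 0.95, rho = 0.92, adjusted p = 0.00015 for each). Arntl and Dbp ran in opposite directions (r = -0.94, rho = -0.96, adjusted p = 0.00015 for each), and so did Npas2 and Dbp (r = -0.90, rho = -0.92, adjusted p = 0.00015 for each). The smallest p that 100000 permutations can give is 1e-05, which these reached before adjustment. Arntl was also opposite to Per2 (r = -0.86, rho = -0.83, adjusted p = 0.000225 and 0.00063) and to Cry2 (r = -0.84, rho = -0.82, adjusted p = 0.000321 and 0.000787).

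**Figure D4:**
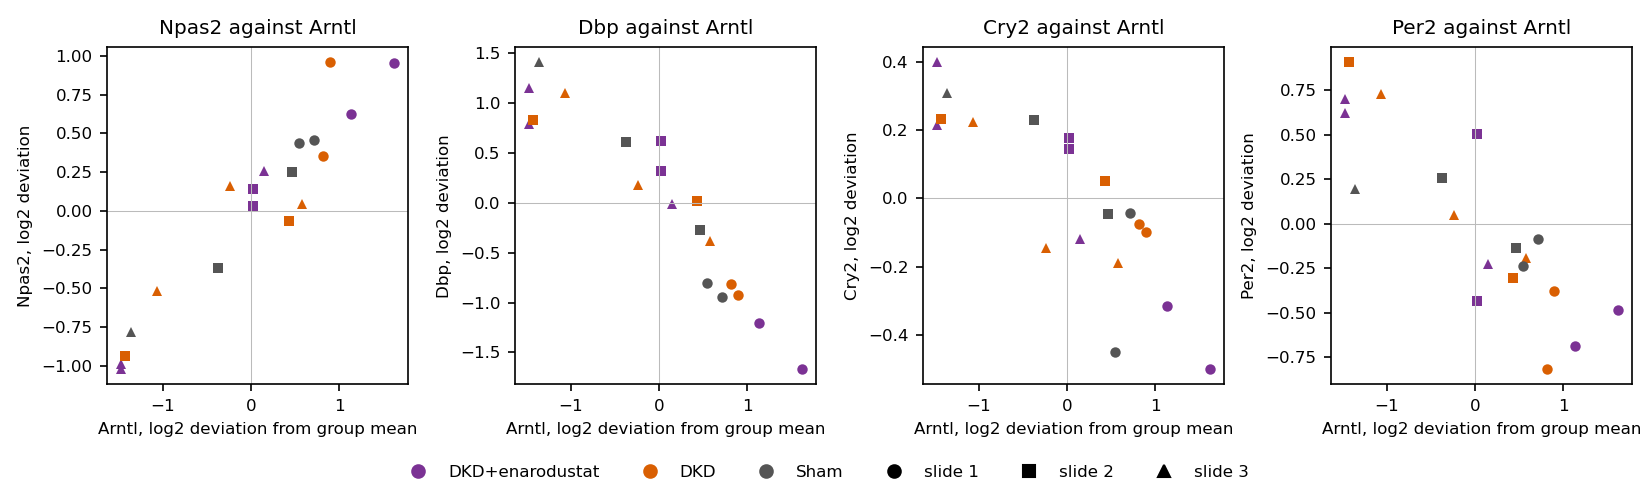
Deviation from the group mean (log2) of Npas2, Dbp, Cry2 and Per2 against that of Arntl, with 1 point per rat, colour for the group and shape for the slide. Npas2 rises with Arntl (r = 0.95) and Dbp falls with it (r = -0.94), in rats of all 3 groups.

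With slide means removed as well, 9 of 45 pairs passed. Here arrays were permuted only within the same group and slide, which allows 2304 arrangements. The test is thus coarser than the 1 within groups, and the lower count cannot be put down to slide alone. Arntl with Npas2 was then 0.90 (adjusted p = 0.0456) and Arntl with Dbp -0.90 (adjusted p = 0.0293), while Arntl with Per2 was -0.77 and did not pass (adjusted p = 0.0568). Within slides 1, 2 and 3 (6, 6 and 7 arrays), Arntl with Dbp was -0.99, -0.89 and -0.96 and Arntl with Npas2 was 0.58, 0.98 and 0.90. Arntl with Per2 was 0.59, -0.80 and -0.98, and Arntl with Cry2 was -0.08, -0.84 and -0.93, so the opposite course of these 2 pairs was not seen on slide 1. Without the 2 arrays farthest from the median of the gene that comes first in the opening list, Arntl with Npas2 was 0.93, Arntl with Dbp -0.94, Arntl with Per2 -0.82 and Arntl with Cry2 -0.76. Per1 passed with none of the other 9 genes, with r of -0.38 to 0.47, and Cry1 was opposite to Nr1d1 (r = -0.69, rho = -0.71, adjusted p = 0.00826 and 0.00354; -0.55 with slide means removed, adjusted p = 0.0916; -0.66 without the 2 farthest arrays).

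**Figure D5:**
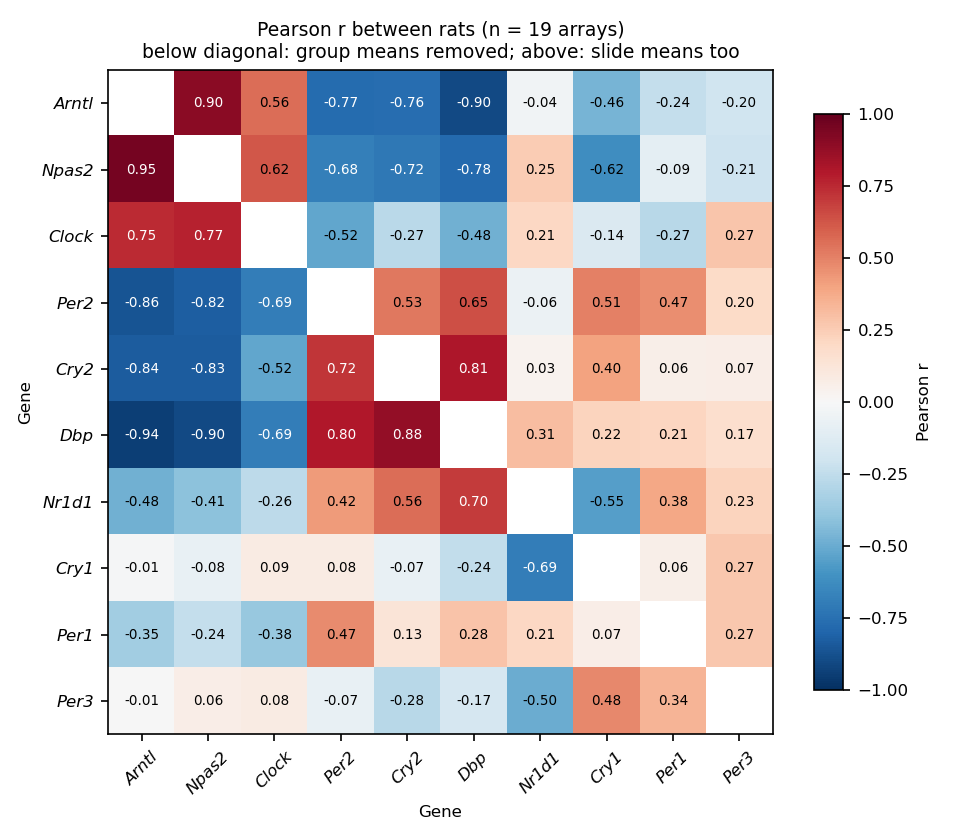
Pearson r between clock genes over 19 arrays, with group means removed below the diagonal and slide means removed as well above it. Arntl and Npas2 are 0.95 and 0.90, and Arntl and Dbp are -0.94 and -0.90, on the 2 sides of the diagonal.

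For the genes that passed a comparison, the 3 genes with the highest r across the 19 arrays, after group and slide means were removed, were Or6f2 (0.83), Atmin (0.80) and Rock2 (0.80) for Per1, and Or6e1 (0.78), Rassf9 (0.78) and Cfap74 (0.78) for Nr1d1. Or6f2 and Or6e1 are olfactory receptor genes. Names that are only identifiers were left out, so the ranking covered 14412 genes, and a highest r picked from so many is only a description. The nearest gene to Arntl, chosen after its values were seen, was Eif3c at 0.92, with Npas2 at 0.90.

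Other genes of the clock were taken from 5 lists, whose calls stand against 17.1% of all genes called in DKD against Sham, 2.00% in DKD+enarodustat against DKD and 26.1% in DKD+enarodustat against Sham. The second-loop receptors Nr1d2 and Rora (2 of 4 tested) had 0 calls in each comparison, with DKD minus Sham at 0.24 ± 0.19 for Nr1d2 and 0.01 ± 0.11 for Rora (limma, 0 at unadjusted p under 0.05). The D-box factors Tef and Nfil3 (2 of 3 tested) also had 0 calls, and 0 at unadjusted p under 0.05, in each comparison. Of the other repressors and paralogs (5 of 6 tested), Bhlhe40, a DEC repressor of E-box genes, was lower in DKD than in Sham (-0.93 ± 0.23, adjusted p = 0.00878), and DKD+enarodustat minus DKD was 0.73 ± 0.21 (adjusted p = 0.0851). Bhlhe40 had a lowest, median and highest level of -3.09, -2.40 and -2.05 in DKD+enarodustat rats and of -3.96, -3.30 and -2.47 in DKD rats, against -1.95, -2.47, -2.47, -2.21 and -2.13 in Sham rats. DKD replicate 4 lay between the 2 lowest Sham rats, and the other 6 DKD rats lay below every Sham rat. In DKD+enarodustat against Sham, 2 of these 5 genes were higher, Ciart by 0.36 ± 0.12 (adjusted p = 0.0271) and Timeless by 0.27 ± 0.10 (adjusted p = 0.0451), where 26.1% of all genes were called.

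Of the 8 genes for turnover of PER and CRY proteins, Fbxw11, which encodes an F-box protein of the ubiquitin ligase for PER, was lower in DKD than in Sham (-0.26 ± 0.07, adjusted p = 0.0134), and the other 7 did not pass. Without the DKD arrays in row 2 of their slides, a check chosen after seeing the data, Fbxw11 was not called either. In DKD+enarodustat against Sham, Csnk1e, a kinase of PER proteins, was higher (0.34 ± 0.07, adjusted p = 0.00101) and Fbxw11 lower (-0.27 ± 0.07, adjusted p = 0.00692). Of 15 genes named as clock-controlled outputs, 7 rose and 1 fell in DKD against Sham (17.1% of all genes called, 8.02% higher, median 0.42, against -0.02 over all genes). In DKD+enarodustat against Sham, 6 rose and 1 fell (26.1% of all genes called, median 0.37, against -0.04). In DKD+enarodustat against DKD there were 0 calls (limma, 1 at unadjusted p under 0.05). This list was chosen with earlier results of these data known, so its counts and medians only describe the genes named. Cdkn1a, an inhibitor of the cell cycle induced by p53, was higher by 3.33 ± 0.27 in DKD than in Sham. Pdk4, a kinase that holds back glucose oxidation, was also called higher, and its probe was well above background in 7 of 7 DKD rats and 1 of 5 Sham rats, so that no size is given. Nampt, which makes NAD precursors, was at 0.88 ± 0.14, and Hspa5, an endoplasmic reticulum chaperone, fell by 0.41 ± 0.09. With replicate number as a block, or without the DKD arrays in row 2, 6 rose and 1 fell in DKD against Sham. As background, both Cdkn1a and Pdk4 also respond to signals outside the clock, such as DNA damage and fasting.

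Of 8 glucocorticoid-responsive genes, 1 was called in DKD+enarodustat against DKD, 2 in DKD+enarodustat against Sham and 1 in DKD against Sham, against 2.00%, 26.1% and 17.1% of all genes. With replicate number as a block, 1 was higher and 1 lower in DKD against Sham. Ddit4 was higher in DKD+enarodustat than in DKD (0.71 ± 0.18, adjusted p = 0.0493), and Ddit4 and Errfi1 were higher than in Sham (0.71 ± 0.20 and 0.59 ± 0.19, adjusted p = 0.0123 and 0.0283). Klf9, named because it was the 1 gene called in that direction, was lower in DKD than in Sham (-0.35 ± 0.11, adjusted p = 0.0333). The Ddit4 call against DKD was lost with replicate number as a block and without the DKD arrays in row 2, and the Klf9 call without those arrays.

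Arrays of 1 group correlated at 0.97 to 0.99. Row 2 of the slides held every DKD+enarodustat array and DKD replicates 2 and 4, and row 1 held the other 5 DKD arrays and every Sham array, so between DKD+enarodustat and Sham arrays row and group cannot be told apart. Fewer probes were well above background on row 2 than on row 1 of every slide, at 57.6% to 60.5% against 64.9% to 66.8% of all probes on slide 1, 54.4% to 57.0% against 60.98% to 62.5% on slide 2 and 58.6% to 62.9% against 64.6% to 67.3% on slide 3, and the part of this in the differences was not tested beyond the fits by row. The 2 Per3 probes that were too dim to test averaged -8.75 and -8.96 in DKD+enarodustat, against -9.58 and -9.84 in Sham. Their signal was thus higher in row 2, and the part of this in differences of other dim probes was not tested. A fit with row as a covariate, which rests on the DKD arrays, gave Per1 1.65 ± 0.44 for DKD+enarodustat against Sham (adjusted p = 0.0406). Against Sham in row 1 only, DKD gave Per1 0.96 ± 0.28 and Nr1d1 0.72 ± 0.17, both past the threshold (adjusted p = 0.049 and 0.0209). All 7 proximal tubule markers, the main cell type of the cortex, were tested, and 1 was higher and 5 lower in DKD than in Sham, where 17.1% of all genes were called. Without the DKD arrays in row 2, 1 was higher and 3 lower. Of 5 thick ascending limb markers 3 were lower (Egf at -0.92) and of 5 podocyte markers 2 were lower, while of 5 collecting duct markers 3 were higher and of 3 tested distal convoluted tubule markers 1 was higher. Without the DKD arrays in row 2, or with replicate number as a block, 2 of 5 collecting duct markers were higher. The summed collecting duct level ran from 5.64 to 6.10 in DKD+enarodustat and from 5.61 to 5.90 in DKD, above the 5.12 to 5.45 in Sham. A summed level adds unlogged levels and weighs the brightest probe most, here Aqp2, higher by 0.61 ± 0.08 in DKD than in Sham. Fxyd4 was higher by 0.52 ± 0.12, while Avpr2 and Scnn1g did not pass, at -0.13 ± 0.13 and 0.01 ± 0.14. Of 6 leukocyte and 4 tested erythroid markers, 0 passed in DKD against Sham (limma, 1 and 0 at unadjusted p under 0.05), and of 2 tested adrenal cortex markers 1 was lower. With replicate number as a block, 1 of 6 leukocyte markers was higher in DKD than in Sham. In DKD+enarodustat against Sham, where 26.1% of all genes were called, 1 of 6 leukocyte and 0 of 4 erythroid markers were higher. There 1 of 7 proximal tubule markers was higher and 6 were lower, and 3 of 5 collecting duct markers were higher. Of 5 thick ascending limb markers 2 were lower, as were 2 of 5 podocyte markers. Of 8 adipocyte markers 7 were tested, and 4 were higher and 0 lower in DKD than in Sham (Car3 by 5.97 ± 1.3). Lep, also called, was well above background in 4 of 7 DKD rats and 0 of 5 Sham rats, at least 2.24-fold higher in DKD. Without the DKD arrays in row 2, 3 were higher. The DKD rats differed widely: Cfd was at 2.23, 2.84 and 0.47 in replicates 2, 4 and 6. In replicates 1, 3, 5 and 7 it was at -4.17, -2.58, -2.60 and -3.10, against -5.20 to -3.91 in Sham. The summed adipocyte marker level ran from -0.18 to 3.65 in DKD+enarodustat and from -0.29 to 4.91 in DKD, against -1.19 to -0.47 in Sham. The part of these markers in the clock gene differences was not tested.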

How the data were processed

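Cy3 intensity was read from 1 scanner file per rat, quantified with Agilent Feature Extraction 11.5.1.1 and background-subtracted and detrended within each array by the authors, per the file headers and the submitters' processing notes. The authors also deposited a table of log2 values for 22739 probes; its scale was checked against normexp-corrected, quantile-normalised scanner values (r = 0.9973 to 0.9993), its column medians were 8.13 to 8.21, and its method and centring are not given in the sources used here. It was used as an alternative.

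Log2 of the processed intensity minus the 75th percentile of each array was used. Outlier spots were left out, spots of 1 probe averaged, and probes well above background on at least 5 of 19 arrays kept; where a gene had several such probes, the brightest on average was used. Probes were named through accessions in a RefSeq table (21109), through another probe of the same name (1977) or from the files (22512). Groups came from the sample titles. The 3 groups were fitted with limma 3.58.1 in R 4.3.3 (two-sided, Benjamini-Hochberg), which was tested on simulated data. The number of arrays limits the precision. Same-numbered rats of different groups always shared a slide, and their deviations correlated at 0.13 to 0.59 for DKD against Sham, 0.14 to 0.42 for DKD+enarodustat against DKD and 0.14 to 0.47 for DKD+enarodustat against Sham. Rats of other numbers on the same slide correlated about as highly (0.20 to 0.52, 0.06 to 0.46 and 0.15 to 0.42). These values therefore cannot tell pairing by number from sharing a slide. The reported fit has no block, and the fit with replicate number as a block is given beside each clock gene call and each list count it changes. A fold given as at least a value sets the mean of the brighter group against, per array, the higher of the dim probe's own value and the lowest signal well above background. Alternatives were other normalizations, filters and probe rules, slide, slide row, replicate number, and single rats left out.

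The clock genes and the other gene lists were chosen with earlier results of these data known. Named genes are the 10 clock genes, up to 4 genes of each other clock list and up to 2 of each context list with the smallest adjusted p, and the 3 genes nearest to each called clock gene. Klf9, Avpr2, Scnn1g, Cfd and Eif3c were named outside this rule.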

Additional observations from a re-analysis of the deposited data

Results flagged for a closer look

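A single rat stood apart in 2 of the 45 combinations of probe and group that were checked, and chance alone singles out about 5% of groups. Nr1d1 in DKD replicate 2 was at -2.56, with the nearest DKD rat at -2.12. A Per3 probe that was otherwise not above background was at -5.09 in DKD replicate 2, with the nearest DKD rat at -8.49. This was the 1 array on which it was well above background. The other 2 Per3 probes were not flagged in that rat. The dimmer of them was at -8.78 in DKD replicate 2 and -8.73 in DKD replicate 4, and at -9.63 or lower in the other DKD rats. DKD replicate 2 is 1 of the 2 DKD arrays in row 2 of their slides.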

How the results depend on the processing

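The count of clock genes past the threshold in DKD against Sham, 2 as reported, was 1 with quantile normalization, with arrays centred on the median and with no filter on dim probes, where Nr1d1 was lost, and 1 with the 2 groups compared alone, where Per1 was lost, and 0 within slides 1, 2 and 3. Leaving out 1 rat at a time gave 0 to 3. The count was 0 without Sham replicate 3 and 1 without Sham replicate 1, 2 or 4 or DKD replicate 3, 4, 5 or 6. In DKD+enarodustat against Sham, 1 as reported, the count was 2 with quantile normalization and with the 2 groups compared alone, 3 with slide as a block or a random block, 4 in the authors' value table, and 0 within slides 1, 2 and 3. It was 1 to 3 when single rats were left out, 3 without DKD+enarodustat replicate 1. With the replicate block the count was 2 in DKD against Sham, where Per2 took the place of Per1, 2 in DKD+enarodustat against Sham and 0 in DKD+enarodustat against DKD, and normexp and quantile normalization with the replicate block, a pair of choices added after seeing the data, gave 2, 2 and 0. In DKD+enarodustat against DKD, 0 genes passed with limma under every alternative run. Probes above background on all 19 arrays, and slide as a block or a random block, gave 3 in DKD against Sham, with Clock added. Slide row as a covariate gave 2, 1 and 0 in DKD against Sham, DKD+enarodustat against Sham and DKD+enarodustat against DKD.

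Each difference that changed sign had an adjusted p above 0.05 as reported. With other scalings, Clock in DKD+enarodustat against DKD was -5e-04 with normexp and quantile normalization, also with the replicate block, -0.0153 with quantile normalization and -0.0087 in the authors' value table, where Dbp was -0.0064. With slide row as a covariate, DKD+enarodustat against DKD was 0.0531 for Per3, -0.13 for Cry1, -0.0228 for Clock, 0.16 for Npas2 and 0.0211 for Nr1d1, DKD+enarodustat against Sham was 0.0691 for Per3 and -0.33 for Cry1, and DKD against Sham was 0.016 for Per3, as it was with row 1 arrays alone and without the DKD arrays in row 2. Within slide 1, DKD against Sham was 0.17 for Cry1 and 0.0187 for Clock, DKD+enarodustat against DKD was -0.0799 for Cry2, 0.15 for Arntl, -0.28 for Clock and -0.54 for Dbp, and DKD+enarodustat against Sham was -0.13 for Dbp. Within slide 2, DKD+enarodustat against DKD was -0.0021 for Per2, -0.22 for Cry1, 0.16 for Arntl, 0.45 for Npas2 and 0.19 for Nr1d1, and DKD+enarodustat against Sham was -0.38 for Cry1. Within slide 3, DKD against Sham was -0.21 for Cry2, 0.32 for Arntl, 0.29 for Npas2 and -0.70 for Dbp, DKD+enarodustat against DKD was 0.10 for Per3, and DKD+enarodustat against Sham was 0.0148 for Per2 and -0.33 for Dbp. With single rats left out, the ranges that crossed 0 were -0.14 to 0.0707 for Per3 and -0.13 to 0.0503 for Cry1 in DKD against Sham, -0.11 to 0.0609 for Per3, -0.0293 to 0.14 for Clock, -0.29 to 0.035 for Npas2 and -0.17 to 0.30 for Dbp in DKD+enarodustat against DKD, and -0.16 to 0.045 for Per3 in DKD+enarodustat against Sham. The causes were not tested.

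Of the 45 pairs, 17 passed as reported, 9 with slide means removed and 9 in the authors' value table, 14 with normexp, 16 with second probes and 18 without the 2 farthest arrays. The r of Arntl with Per2 was 0.59 within slide 1. Of calls, 46.9% were higher in DKD than in Sham as reported, 34.7% with normexp and quantile normalization and 37.0% with quantile normalization; in DKD+enarodustat against Sham the shares were 38.5%, 29.2% and 30.0%, and 64.4% with no filter, and in DKD+enarodustat against DKD 53.4% as reported, 34.3% in the authors' value table and 72.9% with no filter. Slide 3 held 1 Sham rat and slides 1 and 2 held 2 each, which limits the fits within slides.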
